A study of Mus musculus with 6 samples.

Results

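The unstimulated state of cells labelled as mouse bone-marrow-derived macrophages was described from the 2 libraries kept in PBS, of 6 libraries in the series. Several defining markers, given below, go against that label, so the levels are those of the PBS libraries and the cells are called macrophages only as labelled. They were chosen by their label alone. All genes of the count table were taken, with no contrast against the other groups. Bone marrow of wild-type (WT) male C57BL/6 mice, 6 weeks old, had been cultured for 6 days with 20% fetal bovine serum and 30% medium conditioned by L-929 cells, which supplies the growth factor M-CSF. The adherent cells were then kept with 10% serum and given PBS for 6 h, the vehicle arm of an experiment with vesicles of the mould Aspergillus flavus. Messenger RNA was captured through its poly(A) tail and sequenced. The 2 libraries are labelled as biological replicates, but whether they came from separate animals or cultures is not stated, so errors below measure only the spread between these samples.

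Macrophages are tissue phagocytes that depend on M-CSF, which acts through the receptor Csf1r, and on the transcription factor PU.1, encoded by Spi1. Marrow-derived macrophages take up particles through Fc, complement, lectin and scavenger receptors, break them down in lysosomes, and sense microbes through Toll-like receptors, C-type lectins and cytosolic sensors. Most of their inflammatory cytokine genes are transcribed at a low rate until such a receptor is engaged.

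The libraries held 14702478 (replicate 1) and 15277997 (replicate 2) counts. Levels are given as CPM, a count scaled to a library total of 1000000,, divided by the gene length in kilobases that the table states. Their error is the standard deviation (SD) over the 2 libraries. A gene at 1 or more CPM per kilobase in both libraries is called expressed, one with 3 or fewer counts in both is called not detected, and the rest are called low. A count of 0 allows up to 3 counts, which is 0.204 CPM in replicate 1 and 0.196 CPM in replicate 2, for counting error only. Of 20461 protein-coding entries, 9391 (45.9%) were expressed, 2330 were low and 8740 (42.7%) were not detected, 6575 of them with 0 counts in both libraries. The median over all protein-coding entries was 0.386 CPM per kilobase and the median of those expressed was 11.9. In both libraries 2048 protein-coding entries (10.0%) reached 30 CPM per kilobase and 17 reached 1000. Counts were spread over many genes, since the 10 most abundant entries held 4.11% ± 0.00567 (SD) of the counts and the 1000 most abundant held 50.2% ± 0.182.

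Promoters of 4 genes with different levels show what the start sites look like, here as RefSeq windows from 250 bases before to 50 bases after the start on build GRCm38.p6. Capitals mark GAGGAA, the core bound by PU.1, and TATAAA, the TATA box, read on both strands. The genes are Cd68, a lysosomal membrane glycoprotein of macrophages (chr11:69666121-69666420, minus strand, 9664 and 10460 counts), Cybb, the catalytic subunit of the phagocyte oxidase (chrX:9469275-9469574, minus strand, 7970 and 8465 counts), Tnf, an inflammatory cytokine (chr17:35201958-35202257, minus strand, 1054 and 1024 counts), and Il1b, another (chr2:129371090-129371389, minus strand, 1 and 5 counts).
Cd68: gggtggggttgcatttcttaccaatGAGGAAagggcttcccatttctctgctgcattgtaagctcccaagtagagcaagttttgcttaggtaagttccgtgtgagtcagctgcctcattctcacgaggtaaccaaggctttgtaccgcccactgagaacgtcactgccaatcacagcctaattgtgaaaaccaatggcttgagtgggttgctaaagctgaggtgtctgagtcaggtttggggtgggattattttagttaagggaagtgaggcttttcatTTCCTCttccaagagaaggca
Cybb: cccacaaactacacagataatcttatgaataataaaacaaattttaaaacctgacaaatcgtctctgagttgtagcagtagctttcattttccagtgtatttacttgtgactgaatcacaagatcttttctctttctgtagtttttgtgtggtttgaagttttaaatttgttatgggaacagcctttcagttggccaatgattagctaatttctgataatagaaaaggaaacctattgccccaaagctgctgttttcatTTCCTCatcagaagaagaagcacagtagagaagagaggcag
Tnf: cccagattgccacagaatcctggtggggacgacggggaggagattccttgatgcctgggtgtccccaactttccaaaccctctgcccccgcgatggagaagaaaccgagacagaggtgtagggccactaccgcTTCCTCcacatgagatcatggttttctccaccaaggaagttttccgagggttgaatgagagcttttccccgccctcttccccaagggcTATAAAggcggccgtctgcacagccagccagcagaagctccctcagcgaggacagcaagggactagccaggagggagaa
Il1b: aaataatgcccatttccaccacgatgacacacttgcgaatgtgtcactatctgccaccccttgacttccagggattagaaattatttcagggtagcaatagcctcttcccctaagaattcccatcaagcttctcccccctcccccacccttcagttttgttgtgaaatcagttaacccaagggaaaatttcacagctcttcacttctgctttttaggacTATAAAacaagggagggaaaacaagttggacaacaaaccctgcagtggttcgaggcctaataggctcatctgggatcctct
GAGGAA or its complement occurred 2 times in the Cd68 window and 1 time each in those of Cybb and Tnf. TATAAA began 29 bases before the start of Tnf and 31 bases before that of Il1b, so a TATA box at nearly the same distance was present in a gene at 42.3 CPM per kilobase and in one at 0.104. Windows were found for 15108 of 19375 protein-coding entries with a symbol (78%), under the minimum of 80% set for such a check. Over the first window of every gene in the RefSeq table, matched or not (27025 windows), GAGGAA was in 28.3% and TATAAA in 14.2%. That set is wider than the matched protein-coding entries, so it is not a like background for the groups that follow. Among entries expressed at 30 or more CPM per kilobase, 28.0% held GAGGAA and 7.97% held TATAAA, against 25.6% and 5.81% of those expressed below 30. The median ratio of observed to expected CpG was 0.818 and 0.797 in these groups. In each of these groups 81.5% of the entries had a window. Of the low entries 76.0% had a window and of the not detected entries 74.5%, also under 80%. The check is thus void for the low and not detected entries and no share is given for them. A match is a string of letters, not a measured binding site.

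Ribosomal proteins, ferritin, glycolytic enzymes, actin and lysosomal proteins made up the top of the transcriptome. Fth1, the heavy chain of the iron store ferritin (chr19:7609291-7611680 on the C57BL/6NJ coordinates of the table), had 71253 and 72645 counts, or 5543 ± 74.7 CPM per kilobase, the highest level of any protein-coding entry with a symbol. Pkm, pyruvate kinase of muscle type and the last enzyme of glycolysis, had 77253 and 82260 counts (2047 ± 35.3 CPM per kilobase). Actb, cytoplasmic actin, reached 1909.8 ± 86.8 CPM per kilobase, and Ctsd, the lysosomal protease cathepsin D, 1833 ± 48.6 CPM per kilobase. Both libraries placed these genes at nearly the same level. Spp1, the secreted phosphoprotein osteopontin, stood at 1484 ± 53.1 CPM per kilobase and Lgals3, the macrophage lectin galectin-3, at 1467 ± 29.4 CPM per kilobase. Of the 30 highest entries, 14 encode ribosomal proteins by their symbol, led by Rpl8 at 1846 ± 7.43 CPM per kilobase and Rps12 at 1843 ± 6.35 CPM per kilobase. Outside these 14, Gm10073 (rank 2, 2126 ± 24.6 CPM per kilobase) and Gm9843 (rank 24, 791 ± 3.53 CPM per kilobase) have symbols that name no protein. The rest include Eef2, the elongation factor that moves the ribosome (1279 ± 18.8 CPM per kilobase), the chaperone Hsp90ab1 (1177 ± 24.9 CPM per kilobase), the actin-severing protein Cfl1 (1008 ± 4.29 CPM per kilobase), the cytokine Mif (994 ± 36.4 CPM per kilobase), the saposin precursor Psap (922 ± 27.4 CPM per kilobase), the glycolytic enzyme Aldoa (776 ± 23.1 CPM per kilobase), Sh3bgrl3 and the protease Ctsb (753 ± 18.6 CPM per kilobase). Some abundant products have no entry under their symbol. The table's protein matches give Lyz2, lysozyme, to an assembled locus with 38884 and 40100 counts (2759 ± 14.8 CPM per kilobase) and Ftl1, the ferritin light chain, to another with 24770 and 26830 counts (2048 ± 60.1 CPM per kilobase). Loci assembled from the reads held 1.88% ± 0.0144 of the counts, and one of them, matched to the mitochondrial gene of cytochrome c oxidase subunit 1, had 55639 and 61184 counts. Other mitochondrially encoded genes are not analysed here. How the counting treated reads shared by near-identical copies is recorded in none of the sources used here, so levels of ribosomal protein, ferritin, Gapdh and lysozyme genes are uncertain.

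Genes of translation, the cytoskeleton, lysosomes and respiration were expressed almost in full, and those of glycolysis by isoform. Of 76 ribosomal protein genes, 73 were expressed, with a median of 252 CPM per kilobase and 3.91% ± 0.0511 of the counts. That list and share leave out entries without a symbol, such as those matched to L27 (574 ± 29.1 CPM per kilobase) and L3 (279 ± 5.85 CPM per kilobase). The list of lysosomal hydrolases and membrane proteins had 36 of 37 expressed, a median of 92.1 and 2.60% ± 0.05 of the counts. Of the proton pump that acidifies lysosomes 18 of 24 were expressed, with the subunit Atp6v0b highest at 185 ± 5.25 CPM per kilobase, and of the actin cytoskeleton 30 of 31. The exception of the lysosomal list, Ctse, a cathepsin of gastric and lymphoid cells, had 11 and 9 counts. The nuclear-encoded subunits of oxidative phosphorylation had 81 of 84 expressed (median 50.2 CPM per kilobase), led by the ATP synthase subunit Atp5a1 at 351 ± 5.46 CPM per kilobase, and glycolysis with glucose uptake 25 of 35. Within glycolysis the isoforms were unequal: Ldha, lactate dehydrogenase A, stood at 640.1 ± 17.2 CPM per kilobase while Ldhb had 0 and 1 counts, and the glucose carrier Slc2a1 stood at 117 ± 1.24 CPM per kilobase while Slc2a2 had 0 and 0 counts and Slc2a4 0 and 2. Hexokinases Hk3 (114 ± 4.41 CPM per kilobase) and Hk2 (71.9 ± 2.10 CPM per kilobase) stood above Hk1 (25.3 ± 0.931 CPM per kilobase).

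Iron and lipid genes followed a mixed pattern. Hmox1, which opens the haem ring, stood at 386 ± 24.2 CPM per kilobase, and the phagosomal iron exporter Slc11a1 at 143 ± 9.21 CPM per kilobase, while the hormone gene Hamp, whose entry overlaps another, and Steap4 had 0 counts. All 24 matched cholesterol synthesis genes had counts and 21 were expressed, led by the regulator Srebf2 (55.3 ± 1.43 CPM per kilobase). Lpl, lipoprotein lipase, had 20654 and 24291 counts (230.3 ± 20.1 CPM per kilobase). The desaturase Scd2 (107 ± 0.108 CPM per kilobase) and the lipid droplet protein Plin2 (104 ± 1.26 CPM per kilobase) followed. The cholesterol exporters Abcg1 (24.8 ± 0.964 CPM per kilobase) and Abca1 (13.7 ± 0.0751 CPM per kilobase) were expressed. Of the sterol-sensing LXR receptors, Nr1h2 stood at 21.3 ± 1.42 CPM per kilobase and Nr1h3 at 0.412 ± 0.0299 CPM per kilobase, so nearly all LXR transcript per length was of the beta form. Apoe, the lipoprotein component that tissue macrophages secrete, had 210 and 196 counts (6.85 ± 0.519 CPM per kilobase). In arginine metabolism the polyamine enzymes Srm (221 ± 1.17 CPM per kilobase) and Odc1 (71.1 ± 4.66 CPM per kilobase) were high. Arg1, arginase, had 31 and 35 counts and Nos2, the inducible nitric oxide synthase, 3 and 3 counts.

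The label of the cells was then set against macrophage markers. Of 26 markers, which include receptors of tissue macrophages, 15 were expressed, 4 were low and 7 were not detected. Csf1r (chr18:62617314-62645157) had 20471 and 20579 counts (281 ± 6.59 CPM per kilobase). Cd14, the lipopolysaccharide co-receptor, had 6398 and 6783 counts (279.6 ± 3.96 CPM per kilobase), and Adgre1, which encodes the F4/80 antigen, had 5944 and 6316 counts (126 ± 1.99 CPM per kilobase). Csf1r, Cd14 and Adgre1 were thus at a high level in both libraries. Other markers of the same list, Mertk and Fcgr1 among them, were far lower and are given below. Itgam, the CD11b integrin chain, was counted on an overlapping entry without a symbol (2160 and 2175 counts, 28.8 ± 0.641 CPM per kilobase). Sirpa, the receptor of the CD47 signal (179 ± 2.69 CPM per kilobase), and Mpeg1, a pore-forming protein of phagosomes (95.3 ± 4.36 CPM per kilobase), were also expressed.

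Other genes linked to macrophages, not all of them used to define marrow-derived ones, lay between 0 and 3.72 CPM per kilobase. Mertk, a receptor for apoptotic cells, had 10 and 7 counts (0.131 ± 0.0362 CPM per kilobase) and its relative Axl had 2 and 0 counts. Fcgr1, the high-affinity IgG receptor CD64, had 68 and 120 counts (2.38 ± 0.871 CPM per kilobase), and was higher in replicate 2 by more than counting error (exact binomial test of the libraries, Benjamini-Hochberg adjusted p = 0.0149). That test called 5.81% of all tested entries, and 2.51% as higher in replicate 2. The complement gene C1qa had 4 and 10 counts, C1qb 37 and 23 and C1qc 11 and 4. Per length these markers stood far below Csf1r and Cd14. Fn1 (fibronectin), Thbs1 (thrombospondin) and Retnla had 0 counts in both libraries, and so did Chil3, whose entry overlaps another. The tissue-macrophage receptors Cd163, Marco, Timd4 and Clec4f also had 0 counts, which is not set against the label. Mrc1, the mannose receptor, stood at 3.72 ± 0.382 CPM per kilobase. Aif1 had 34 and 20 counts and missed the threshold in replicate 2. The near absence of Mertk, Axl, Fn1 and most C1q transcripts goes against the label of marrow-derived macrophages, while Csf1r, Cd14, Cd68 and Adgre1 go with a macrophage label. Whether the label is right was not tested, and this doubt applies to every level given here.

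**Figure D1:**
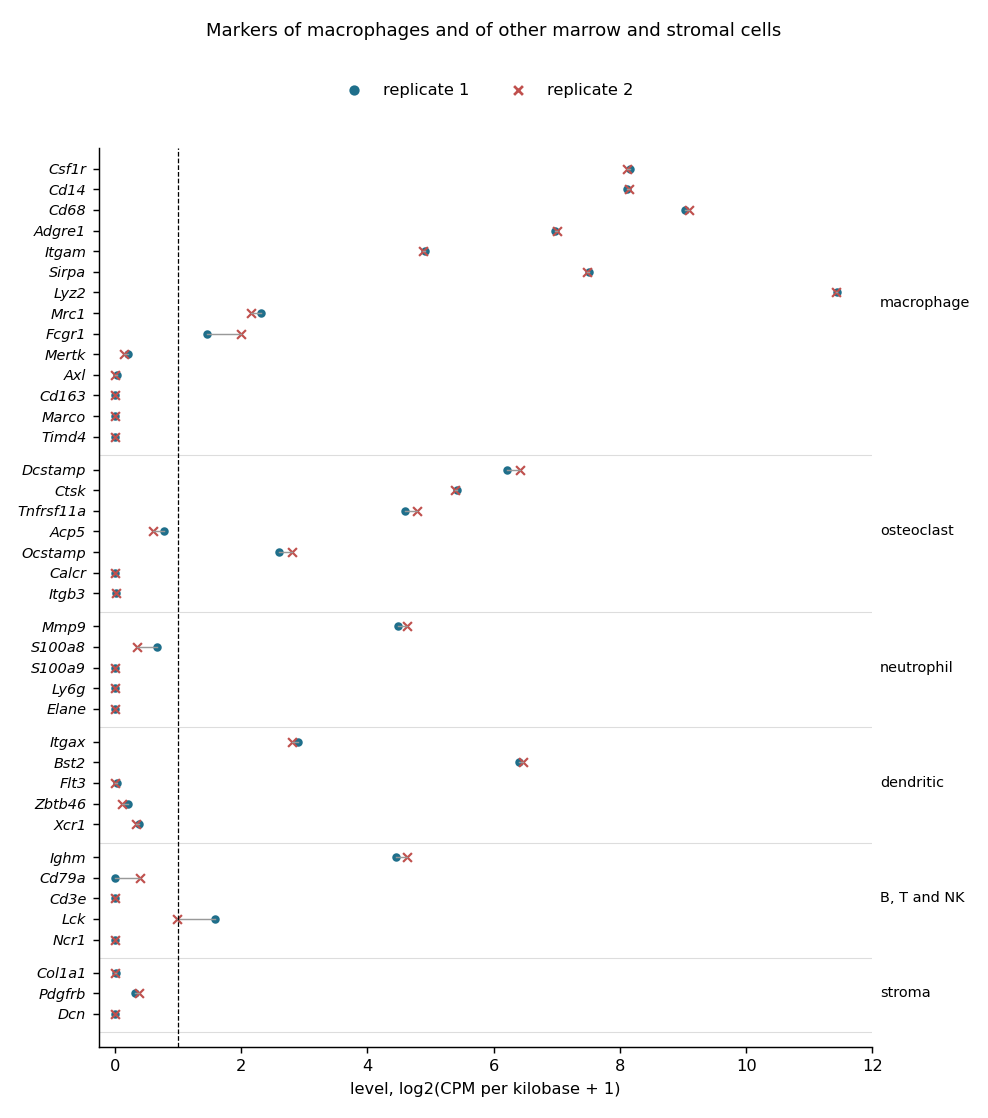
Levels in each PBS library, as log2(CPM per kilobase + 1), of markers of macrophages and of other cells, with circles for replicate 1, crosses for replicate 2 and a dashed line at 1 CPM per kilobase. Csf1r, Cd14, Cd68 and Lyz2 lie far to the right in both libraries, while Mertk, Axl, Cd163, Marco, Timd4 and most markers of neutrophils, lymphocytes and stroma lie at or near 0.

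Markers of the other cells that a marrow culture could hold were mostly absent. The neutrophil list had 1 of 16 expressed (Mmp9, a gelatinase also made by macrophages and osteoclasts, at 22.6 ± 1.60 CPM per kilobase), with S100a9, Ly6g and Elane at 0 counts. Its summed level was 22.8 and 25.1 CPM per kilobase. Of the T and NK cell list none of 16 was expressed, with Cd3d, Cd3e and Cd3g at 0 counts. Lck, a T-cell kinase, had 87 and 44 counts (1.5 ± 0.733 CPM per kilobase) and lay above the threshold in replicate 1 alone. The B cell list had 1 of 10 expressed. That was Ighm, the heavy chain of IgM, with 582 and 682 counts (22.3 ± 1.89 CPM per kilobase), while Ms4a1 had 0 counts and Cd79b 3 and 3 counts. None of the 14 mast cell, basophil and eosinophil markers, 6 erythroid markers, 12 stromal markers or 6 epithelial markers was expressed. The stromal genes Dcn and Lum had 0 counts, and the smooth muscle actin Acta2 had 13 and 12 counts. Of 11 stem and progenitor markers, Procr, the protein C receptor, was expressed at 35.0 ± 0.136 CPM per kilobase, while Kit had 1 and 0 counts, Flt3 2 and 0 and Cd34 0 and 1. The megakaryocyte list had 2 of 8 expressed, the chemokine Pf4 at 9.32 ± 1.37 CPM per kilobase and Vwf at 3.72 ± 0.357 CPM per kilobase, while Gp9 and Gp6 had 0 counts. Among endothelial markers Vwf and Egfl7 were expressed and Tek, Emcn and Cldn5 had 0 counts.

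Dendritic cells, monocytes and osteoclasts share the macrophage lineage, and osteoclast markers had the largest share expressed of the other-cell lists. Dendritic cell markers had 3 of 11 expressed, namely Bst2 (85.7 ± 2.74 CPM per kilobase), Itgax (6.22 ± 0.346 CPM per kilobase) and Batf3 (1.60 ± 0.505 CPM per kilobase), with Zbtb46 at 19 and 11 counts and Clec9a, on an overlapping entry, at 1 and 0. Siglech and Ccr7 had 0 counts. Of 9 monocyte markers, Nr4a1 and Treml4 were expressed. F13a1, Plac8 and Ly6c2, the last on an overlapping entry, had 0 counts. The osteoclast list had 7 of 11 expressed. Dcstamp, needed for the fusion of precursors, had 2145 and 2562 counts (78.7 ± 7.73 CPM per kilobase), the bone protease Ctsk had 925 and 948 counts (41.3 ± 0.404 CPM per kilobase), and the receptor of the osteoclast factor RANKL, Tnfrsf11a, had 2053 and 2440 counts (25 ± 2.37 CPM per kilobase). Against these, Itgb3, the integrin chain of mature osteoclasts, had 1 and 1 counts, the acid phosphatase Acp5 17 and 13 counts, and the calcitonin receptor Calcr, whose entry overlaps another, 0. In libraries of whole cultures, fewer cells of a type and less RNA per cell cannot be told apart. For the male label, Xist, the transcript of the silenced X chromosome, had 2 and 0 counts on an overlapping entry, and Y-linked genes are not analysed here.

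Lineage transcription factors were mostly expressed (33 of 42), and the master factor stood highest. Spi1 (chr2:95635753-95674793) had 9703 and 10429 counts (249 ± 5.95 CPM per kilobase). The inflammatory factor Cebpb had 4220 and 3963 counts (182 ± 13 CPM per kilobase). Maf, a leucine zipper factor, had 0 counts in both libraries. Other members were moderate, such as Cebpd (38.7 ± 3.45 CPM per kilobase), Irf8 (13.7 ± 0.00689 CPM per kilobase), Cebpa (13.3 ± 0.576 CPM per kilobase) and Runx1 (7.34 ± 0.0796 CPM per kilobase). Of factors of other blood lineages, Gata1, Gata2 and Batf had 0 counts and Gfi1 1 and 0. Factors tied to macrophages of single tissues had 7 of 17 expressed, led by Bhlhe40 (53.4 ± 1.02 CPM per kilobase). Gata6 (peritoneum), Spic (red pulp) and Sall1 (microglia) had 0 counts and Pparg (alveoli) 5 and 7 counts. In the families that the table itself assigns, 627 of 1518 factor entries (41.3%) were expressed, against 45.9% of all protein-coding entries. ETS factors (16 of 26) and bZIP factors (32 of 46) had larger shares than homeobox factors (24 of 206).

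Signal-dependent factors were present without stimulation. NF-kB and AP-1 members had 19 of 20 expressed, led by Junb (121 ± 1.32 CPM per kilobase), Fosl1 (52.4 ± 0.621 CPM per kilobase) and the NF-kB inhibitor Nfkbia (46.0 ± 0.0888 CPM per kilobase), while Rela, the main activating NF-kB subunit, stood at 37.7 ± 0.0717 CPM per kilobase. Fosb, with 10 and 15 counts, was the exception. IRF and STAT members had 13 of 16 expressed. Irf5, which drives inflammatory genes below Toll-like receptors, had 4559 and 4971 counts (109 ± 3.72 CPM per kilobase) and Stat6, the effector of interleukin-4, 4296 and 4512 counts (67.0 ± 0.505 CPM per kilobase). Irf4 had 11 and 7 counts and Stat4, whose entry overlaps another, 0. Nuclear receptors had 17 of 49 expressed and none reached 30 CPM per kilobase, the highest being Esrra, an orphan receptor of energy metabolism, at 22.9 ± 2.61 CPM per kilobase. The glucocorticoid receptor Nr3c1 stood at 7.73 ± 0.637 CPM per kilobase, the vitamin D receptor Vdr had 8 and 2 counts, and Ppara had 0.

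**Figure D2:**
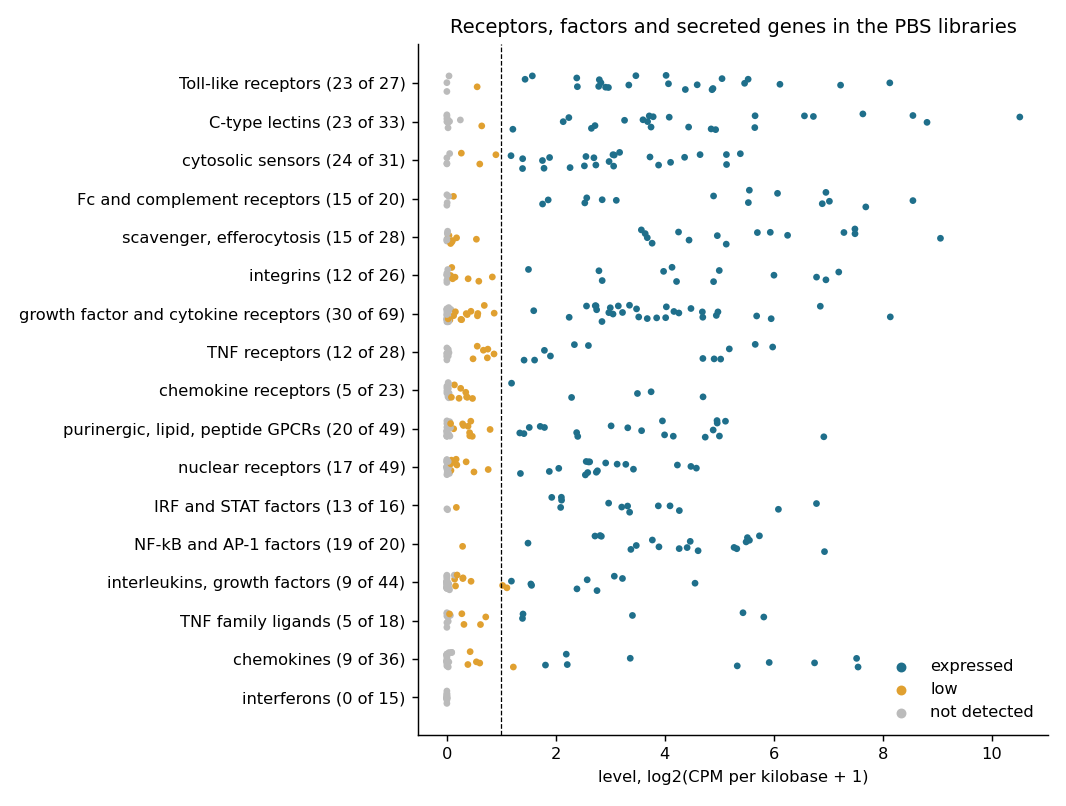
Mean level in the PBS libraries, as log2(CPM per kilobase + 1), of each matched gene in 17 lists of receptors, factors and secreted proteins, with the number expressed in brackets, vertical jitter for legibility and a dashed line at 1 CPM per kilobase. The 15 interferon genes all lie at 0, while 19 of 20 NF-kB and AP-1 factors and 23 of 27 genes of the Toll-like receptor list are expressed.

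Receptors for microbes covered most classes. Of the Toll-like receptor list 23 of 27 were expressed. Among the receptors themselves, Tlr13, a sensor of bacterial ribosomal RNA, had 2779 and 2762 counts (45.3 ± 1.42 CPM per kilobase), Tlr2, for lipoproteins, 2005 and 1896 counts (43.2 ± 2.88 CPM per kilobase), Tlr7, for single-stranded RNA, 1281 and 1561 counts (23.2 ± 2.61 CPM per kilobase) and Tlr4, for lipopolysaccharide, 1642 and 1709 counts (19.8 ± 0.0223 CPM per kilobase). Tlr9 (9.13 ± 0.614 CPM per kilobase), Tlr6 (4.26 ± 0.192 CPM per kilobase), Tlr8 (4.22 ± 0.740 CPM per kilobase) and Tlr3 (1.97 ± 0.222 CPM per kilobase) were lower, and Tlr5 had 1 and 3 counts, and Tlr11 and Tlr12 had 0. Ly96, the MD-2 partner that Tlr4 needs to bind lipopolysaccharide, stood at 5.90 ± 0.718 CPM per kilobase, well below Cd14, and the chaperone of the endosomal receptors, Unc93b1, at 68.3 ± 1.06 CPM per kilobase. The adaptor Myd88 (28.6 ± 0.720 CPM per kilobase) exceeded Ticam1 (6.82 ± 0.540 CPM per kilobase) per length. Tlr7 differed between the libraries beyond counting error (ratio of replicate 2 to replicate 1 1.17, exact binomial test, adjusted p = 0.00180).

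C-type lectins bind fungal and other sugars, and 23 of 33 of this list were expressed. Clec4d and Clec4e, the paired receptors for glycolipids and fungal mannans also called MCL and Mincle, had 4738 and 4760 counts (198 ± 4.73 CPM per kilobase) and 3658 and 3684 counts (49.3 ± 1.09 CPM per kilobase). Clec7a, the beta-glucan receptor dectin-1, had 188 and 255 counts (5.59 ± 1.05 CPM per kilobase), and Clec4n, dectin-2, 249 and 256 counts (11.9 ± 0.0895 CPM per kilobase), both lower than the Clec4d pair. The signalling chain was present at every step: the adaptors Tyrobp (449.7 ± 7.69 CPM per kilobase) and Fcer1g (376 ± 1.24 CPM per kilobase), the kinase Syk (27.9 ± 0.833 CPM per kilobase), and Card9 (20.7 ± 0.50 CPM per kilobase), Bcl10 (12.8 ± 0.562 CPM per kilobase) and Malt1 (12.4 ± 0.263 CPM per kilobase). Cd209b, Cd209d, Clec4b1 and Ly75 had 0 counts. Of the cytosolic sensors 24 of 31 were expressed, led by Casp1 (40.9 ± 1.36 CPM per kilobase), the pore former Gsdmd (34.1 ± 1.22 CPM per kilobase) and Nlrp3 (34.1 ± 1.81 CPM per kilobase). The DNA sensors Aim2 (19.6 ± 0.963 CPM per kilobase) and Cgas (13.8 ± 1.19 CPM per kilobase) and the adaptor Tmem173, also called STING (24.1 ± 0.637 CPM per kilobase), were expressed. Pycard, the adaptor ASC of the inflammasome, stood at 7.28 ± 0.498 CPM per kilobase. Ifih1, the RNA sensor MDA5, lay below the threshold at 0.866 ± 0.000403 CPM per kilobase. Zbp1 and Nlrp6 had 0 counts.

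Uptake receptors ranged from high members through low ones to absent ones. Of Fc and complement receptors 15 of 20 were expressed. Fcgr3 (206 ± 1.40 CPM per kilobase) and Fcgr4 (45.4 ± 4.21 CPM per kilobase), activating IgG receptors, stood above the inhibitory Fcgr2b (7.64 ± 0.592 CPM per kilobase) and above Fcgr1. The anaphylatoxin receptors C5ar1 (129 ± 1.47 CPM per kilobase) and C3ar1 (66.2 ± 3.81 CPM per kilobase) were high. Of 28 scavenger and efferocytosis receptors 15 were expressed: Lrp1 had 47438 and 47640 counts on an entry without a symbol (179 ± 4.32 CPM per kilobase), Cd36 8082 and 8663 counts (156 ± 3.41 CPM per kilobase) and Trem2, a lipid sensor of lipid-laden macrophages, 4470 and 4471 counts (60.3 ± 1.63 CPM per kilobase). Of the Trem, Siglec and inhibitory receptors 13 of 19 were expressed. The ligands of Mertk and Axl, had 4 and 1 counts (Gas6) and 5 and 4 (Pros1), so both sides of that pair were near 0. Mfge8, which bridges dying cells to integrins, stood at 30.2 ± 0.630 CPM per kilobase. Of the scavenger list 6 were low and 7 not detected. Integrins had 12 of 26 expressed (46.2%), near the 45.9% of all protein-coding entries. Itgb7, a chain that pairs with Itga4 in gut-homing leukocytes, had 6105 and 5895 counts and the highest level of the family at 146 ± 7.55 CPM per kilobase, against 17.6 ± 0.690 CPM per kilobase for Itga4 and 123 ± 5.64 CPM per kilobase for the common leukocyte chain Itgb2. Itgax, the CD11c chain, stood at 6.22 ± 0.346 CPM per kilobase.

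Receptors for growth factors and cytokines had 30 of 69 expressed, near the 45.9% of all protein-coding entries. Csf1r was highest. The GM-CSF receptor chains Csf2rb (115 ± 4.12 CPM per kilobase) and Csf2ra (29.8 ± 2.57 CPM per kilobase) and all 4 chains of the type I and type II interferon receptors were expressed, with Ifngr2 (50.6 ± 0.333 CPM per kilobase) above Ifngr1 (17.0 ± 0.367 CPM per kilobase) and Ifnar1 (30.5 ± 1.13 CPM per kilobase) above Ifnar2 (21.3 ± 0.197 CPM per kilobase). Il6ra (25 ± 0.639 CPM per kilobase), Il10rb (18.2 ± 1.03 CPM per kilobase) and Tgfbr2 (15.3 ± 0.732 CPM per kilobase) were present, and so was Il4ra (5.73 ± 0.989 CPM per kilobase). Il1r1, the signalling receptor of interleukin-1, had 2 and 1 counts. Csf3r, the G-CSF receptor, was low with 30 and 36 counts, and Il2rb, Egfr, Il23r and the lambda interferon chain Ifnlr1 had 0 counts. In the TNF receptor family 12 of 28 were expressed, led by Tnfrsf1b (62.2 ± 5.61 CPM per kilobase) and Tnfrsf1a (49.6 ± 0.455 CPM per kilobase), the receptors of TNF itself. Cd40, the receptor of T-cell help, was low with 39 and 45 counts.

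Chemokine receptors were among the sparsest lists, with 5 of 23 expressed. Cx3cr1, the fractalkine receptor, had 1217 and 1421 counts (25.1 ± 2.06 CPM per kilobase), Cxcr3 326 and 320 counts (12.5 ± 0.502 CPM per kilobase) and Ccr1 423 and 452 counts (10.3 ± 0.203 CPM per kilobase). Ccr2, the receptor of inflammatory monocytes, had 29 and 45 counts (0.386 ± 0.108 CPM per kilobase), below the threshold. Ccr7, Cxcr1 and Ackr3 had 0 counts. Of receptors for nucleotides, lipids and peptides 20 of 49 were expressed. P2rx7, the ATP-gated channel that triggers the inflammasome, had 10614 and 10897 counts (120.2 ± 1.03 CPM per kilobase), several times the level of the next members P2ry6 (33.7 ± 0.254 CPM per kilobase) and S1pr2 (31.1 ± 0.0608 CPM per kilobase). The formyl peptide receptor Fpr1 had 10 and 4 counts and Fpr2 4 and 3. The microglial nucleotide receptor P2ry12 had 1 and 0 counts and P2ry13 1 and 2.

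Antigen presentation differed sharply by class. Of the class I pathway 17 of 18 were expressed, with B2m, the shared light chain, at 730.3 ± 15.3 CPM per kilobase (9370 and 9453 counts) and H2-K1 at 225 ± 2.82 CPM per kilobase. The class II chains H2-Aa, H2-Ab1 and H2-Eb1 had 0 counts in both libraries. Ciita, the factor that switches class II on, had 1 and 4 counts. Cd74, the invariant chain that class II molecules carry, nevertheless had 4892 and 4986 counts (219 ± 3.0 CPM per kilobase). The peptide loader H2-DMa stood at 2.65 ± 0.819 CPM per kilobase. Of the co-stimulators Cd80 (13.1 ± 0.384 CPM per kilobase) exceeded Cd86 (1.76 ± 0.0606 CPM per kilobase).

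Secreted genes fell into a small expressed set and a large silent one. Of 36 matched chemokines 9 were expressed and 22 were not detected. Ccl3, a ligand of Ccr1, had 1948 and 2338 counts (186 ± 19 CPM per kilobase), a difference beyond counting error with the higher value in replicate 2 (exact binomial test, adjusted p = 0.000298). Ccl9, also a ligand of Ccr1, had 8076 and 8627 counts (183 ± 3.57 CPM per kilobase), Ccl2, the ligand of Ccr2, 1758 and 1884 counts (107 ± 2.33 CPM per kilobase), and Ccl4 575 and 602 counts (59.5 ± 0.315 CPM per kilobase). Cxcl14 followed at 39.3 ± 0.290 CPM per kilobase. Of the 9 expressed chemokines 7 were CC ligands. Cxcl2 was low with 9 and 10 counts and Cxcl10 with 19 and 16, Cxcl1 had 0 and 1 counts, and Cxcl9, Cxcl3, Cxcl5, Cxcl12, Ccl8, Ccl17, Ccl11 and Ccl20 had 0.

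**Figure D3:**
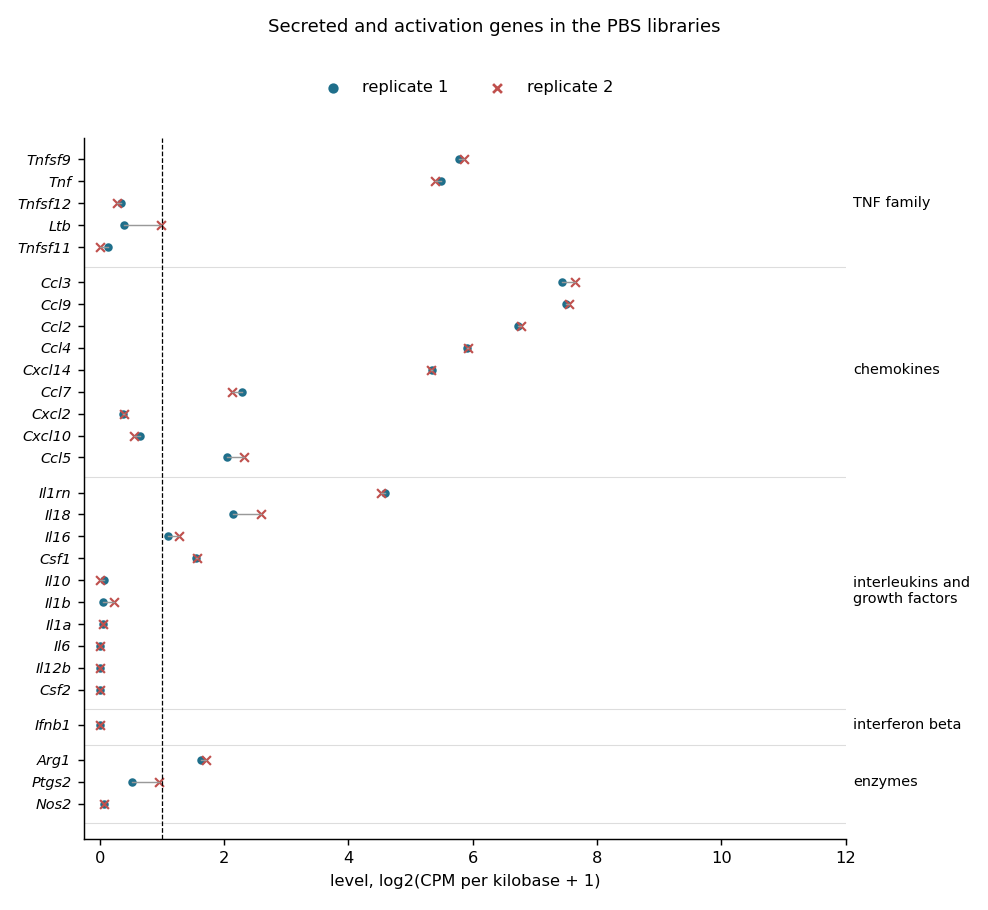
Levels in each PBS library, as log2(CPM per kilobase + 1), of secreted genes and activation enzymes, with circles for replicate 1, crosses for replicate 2 and a dashed line at 1 CPM per kilobase. Tnfsf9, Tnf, Ccl3, Ccl9, Ccl2, Ccl4, Cxcl14 and Il1rn lie well to the right in both libraries, while Il1a, Il6, Il12b, Csf2 and Ifnb1 lie at or near 0.

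Of 44 interleukin and growth factor genes 9 were expressed and 27 were not detected. The highest was Il1rn, the interleukin-1 receptor antagonist, with 1876 and 1861 counts (22.5 ± 0.739 CPM per kilobase). Of its agonists Il1a had 1 and 1 counts and Il1b 1 and 5. The antagonist was therefore present with almost none of the agonist transcripts. Next came Kitl, stem cell factor (8.34 ± 1.3 CPM per kilobase), Ebi3, a shared subunit of interleukins 27 and 35 (7.42 ± 1.37 CPM per kilobase), Osm, oncostatin M (5.76 ± 1.34 CPM per kilobase), Il15 (4.96 ± 0.112 CPM per kilobase) and Il18 (4.24 ± 1.14 CPM per kilobase). Csf1, which encodes M-CSF itself, had 150 and 157 counts (1.94 ± 0.00989 CPM per kilobase), far below its receptor. Il6, Il12b, Csf2, Il33 and Il13 had 0 counts, Il10 had 1 and 0 counts and Il12a 0 and 1 counts. Csf3, the G-CSF gene, had 14 and 1 counts, which differ beyond counting error (exact binomial test, adjusted p = 0.0199). All 15 matched interferon genes, Ifnb1 and Ifng among them, had 0 counts.

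Of 18 TNF family ligands 5 were expressed. Tnfsf9, the ligand of 4-1BB, had 973 and 1073 counts (55.5 ± 2.33 CPM per kilobase) and Tnf (chr17:36693785-36696411) 1054 and 1024 counts (42.3 ± 2.01 CPM per kilobase). Tnf was thus transcribed in both libraries at a level near that of its receptor Tnfrsf1a. Tnfsf13b, the B-cell factor BAFF, stood at 9.61 ± 0.246 CPM per kilobase. Tnfsf11, which encodes RANKL, had 3 and 0 counts. Growth and matrix factors had 21 of 45 expressed. Gpnmb, a glycoprotein of lipid-laden and lysosome-rich macrophages, had 61215 and 59670 counts (621 ± 28.1 CPM per kilobase), the plasminogen activator Plau 5608 and 7185 counts (182 ± 26.8 CPM per kilobase) and Tgfb1 3684 and 3488 counts (47.8 ± 3.14 CPM per kilobase). Igf1 stood at 7.85 ± 0.116 CPM per kilobase and Mmp12 at 2.22 ± 0.211 CPM per kilobase. Hgf (on an overlapping entry), Areg, Sparc and Mmp3 had 0 counts. Of 21 complement components 4 were expressed, among them Cfp, properdin (142 ± 2.11 CPM per kilobase), C3 (15.9 ± 1.55 CPM per kilobase) and C1qb (1.85 ± 0.657 CPM per kilobase).

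Some markers of classical and of alternative activation were expressed, where 45.9% of all protein-coding entries were. Of the classical list 5 of 17 (29.4%) were expressed, or 8 with TPM. Acod1, the itaconate enzyme, stood at 11 ± 0.782 CPM per kilobase beside Tnf and Cd80. Ptgs2, inducible cyclooxygenase, had 29 and 66 counts and lay below the threshold, and its libraries differed beyond counting error (exact binomial test, adjusted p = 0.0126). Of the alternative list 7 of 19 (36.8%) were expressed, with Tgm2, transglutaminase 2, at 38.4 ± 1.39 CPM per kilobase and Clec10a at 12.1 ± 0.189 CPM per kilobase. Interferon-response genes had 18 of 34 expressed. Ifitm3, a membrane restriction factor, had 3550 and 3646 counts (354 ± 2.93 CPM per kilobase) and Oasl1 1677 and 1763 counts (44.0 ± 0.361 CPM per kilobase), while Isg15 had 30 and 29 counts (2.60 ± 0.133 CPM per kilobase), Ifit1 31 and 21 counts, Rsad2 9 and 1 counts, Mx1 1 and 0 counts and Ifi44 0. Members of this list thus ranged from the level of Ifitm3 to 0 in the same libraries.

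The phagocyte oxidase, which makes superoxide, was expressed with its membrane and cytosolic parts. The membrane chains Cyba (5620 and 5447 counts, 487 ± 24.0 CPM per kilobase) and Cybb (94.6 ± 1.46 CPM per kilobase), the cytosolic chains Ncf1 (66.8 ± 1.59 CPM per kilobase) and Ncf4 (49.8 ± 4.13 CPM per kilobase) and the GTPases Rac2 (84.9 ± 5.52 CPM per kilobase) and Rac1 (53.1 ± 0.935 CPM per kilobase) were present. Nox1, Nox3 and Noxo1 of the non-phagocyte oxidases were low, and Nox4, Duox1, Duox2 and Noxa1 were not detected. Among eicosanoid genes 10 of 21 were expressed, the highest being the prostaglandin E synthase and co-chaperone Ptges3 at 178 ± 0.350 CPM per kilobase. Ptgs1, the constitutive cyclooxygenase, stood at 14.2 ± 0.937 CPM per kilobase and Pla2g4a, the phospholipase that frees arachidonic acid, at 46.9 ± 1.69 CPM per kilobase. Alox5ap, which presents arachidonic acid to 5-lipoxygenase, had 2047 and 2004 counts (127 ± 5.37 CPM per kilobase), but Alox5, the lipoxygenase itself, had 2 and 6 counts.

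Cell cycle genes were expressed throughout. All 36 members of the S phase and DNA replication list were expressed, between 4.64 and 129 CPM per kilobase with a median of 17.6, and so were all 34 of the G2 and M phase list, between 2.61 and 58.4 with a median of 18.3. Pcna, the replication clamp, had 4739 and 4503 counts (129 ± 8.13 CPM per kilobase), and Mcm6, of the replicative helicase, 7565 and 7746 counts (109 ± 1.14 CPM per kilobase). In mitosis, Cdc20 had 1654 and 1612 counts (58.4 ± 2.64 CPM per kilobase), Top2a 4461 and 4802 counts (34.3 ± 0.854 CPM per kilobase) and Mki67, which encodes the Ki-67 antigen, 4198 and 4415 counts (28.5 ± 0.242 CPM per kilobase). Both lists exceeded the median of all expressed protein-coding entries. Together they held 0.422% ± 0.00221 (S phase) and 0.270% ± 0.00136 (G2 and M phase) of the counts. Ccnd1, the D-type cyclin that M-CSF signalling induces, had 8473 and 9561 counts (157 ± 9.13 CPM per kilobase), far above Ccnd3 (8.21 ± 0.409 CPM per kilobase) and Ccnd2 (4.07 ± 0.340 CPM per kilobase). Of the cyclins, kinases and inhibitors 26 of 33 were expressed. Among inhibitors, Cdkn1a, which encodes p21, stood at 65.4 ± 1.03 CPM per kilobase and Cdkn1b, p27, at 3.87 ± 0.406 CPM per kilobase. Cdkn2a and Cdkn2b, neighbouring genes that encode p16, Arf and p15, had 0 counts in both libraries. Myc had 62 and 78 counts (1.68 ± 0.227 CPM per kilobase). The share of cells in cycle cannot be read from these libraries.

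**Figure D4:**
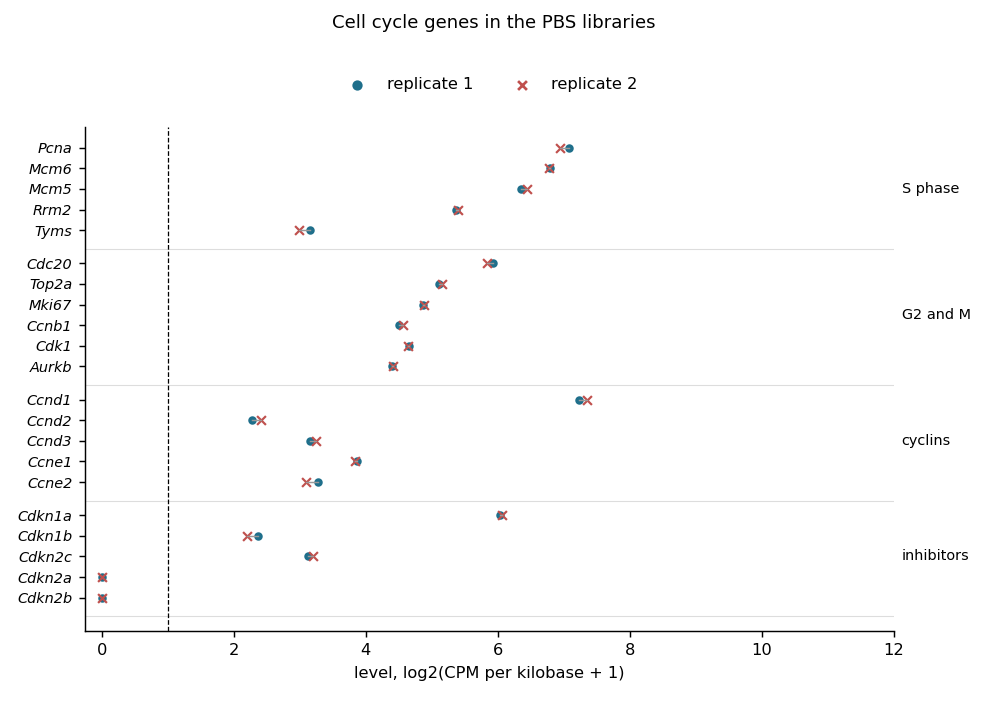
Levels in each PBS library, as log2(CPM per kilobase + 1), of cell cycle genes, with circles for replicate 1, crosses for replicate 2 and a dashed line at 1 CPM per kilobase. All the S phase, G2 and M genes and cyclins shown lie above the line in both libraries, Ccnd1 is the highest, and Cdkn2a and Cdkn2b lie at 0.

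The libraries were also compared with each other, which asks which entries differed by more than counting error and says nothing of conditions. Among expressed entries 98.7% lay within 2-fold of each other, and the median absolute log2 ratio was 0.08. An exact binomial test given the library totals called 792 of 13640 tested entries (5.81%) at an adjusted p under 0.05, with 342 (2.51%) higher in replicate 2 and 450 (3.3%) higher in replicate 1. Of these 114 differed by at least 2-fold, 27 of them expressed. The share called was 26.2% among entries at 100 or more CPM per kilobase, where the median absolute log2 ratio was 0.04, so abundant genes were called at very small differences. Atp5h, a subunit of ATP synthase, had 937 and 373 counts, a ratio of 0.383 (95% interval 0.339 to 0.432, counting error only, adjusted p = 1.08e-57). Ufm1, a ubiquitin-like modifier, had 232 and 85 counts (ratio 0.353, 0.272 to 0.454), and Lsm5, an RNA-binding protein of the spliceosome, 9 and 47 (ratio 5.03, 2.43 to 11.7). Differences of that size were rare among expressed genes. An entry matched to the elongation factor eEF1A1 had 19996 and 34669 counts, while a second entry with the same match had 21337 and 22432. Both lie on the minus strand of chromosome 9, where they overlap, so they are not read as separate genes. The ribosomal protein and lysosomal lists hold many abundant genes (medians 252 and 92.1 CPM per kilobase). Their numbers called are thus to be set beside that 26.2% for members at 100 or more CPM per kilobase. The median of the lysosomal list lies below 100. Over all tested entries, 6.43% were called at 10 to 100 CPM per kilobase and 4.67% at 1 to 10. The numbers called are not read as particular to these lists. Of the ribosomal protein list 19 of 73 were called, 15 of them higher in replicate 2. Of the lysosomal list 9 of 37 were called, all of them higher in replicate 1. The ratios of replicate 2 to replicate 1 of these 9 genes lay between 0.904 (the protease Ctss, 10694 and 10047 counts) and 0.966 (Ctsb, 53399 and 53584 counts).

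**Figure D5:**
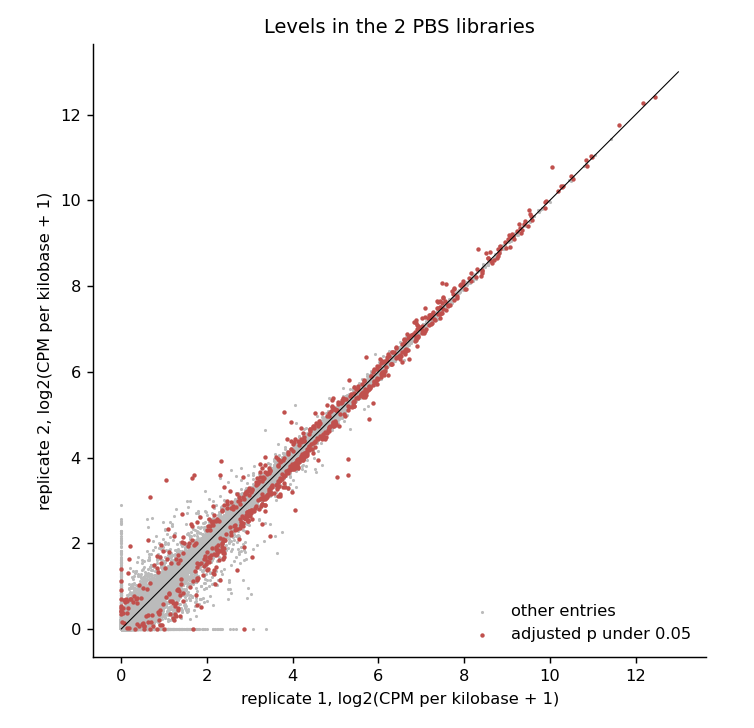
Level of each detected entry in PBS replicate 1 (horizontal) against replicate 2 (vertical), both as log2(CPM per kilobase + 1), with entries called by the exact binomial test in red, the rest in grey and the line of equality. The points follow the line above about 10 CPM per kilobase and spread around it at lower levels.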

How the data were processed

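RNA-seq of the PBS-treated cells was taken from the deposited table of raw counts per gene, 2 libraries of 14702478 and 15277997 counts. Per the submitters' processing notes, fastp, HISAT2 2.0.5, StringTie 1.3.3b, featureCounts 1.5.0-p3 and the build GRCm39 were used. The deposited identifiers are those of the C57BL/6NJ annotation (41096 entries, with 876 assembled loci), so coordinates are given as deposited. The strand setting and the handling of multi-mapping reads are recorded in none of the sources used here. The libraries were assigned by their library name, since the treatment field reads co-culture for them too. All per-sample columns matched a label.

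Counts were scaled to CPM over all entries and divided by the deposited gene length. Levels of single genes were found by symbol (1285 of 1337 found list members), by an older or newer symbol (5) or by the table's protein match (47), and 33 of 1370 list genes had no match. Where the entry with the symbol was not expressed, any expressed entry with a mouse protein match was taken in its place. Of several candidate entries the one with the highest mean level was taken. These choices lean towards more list members called expressed. Libraries were compared by a two-sided exact binomial test per entry with 10 or more counts in all, Benjamini-Hochberg adjusted, called under 0.05. The test was checked on simulated data. It covers counting error between these libraries, not conditions, and without molecular identifiers reads are not independent molecules. Alternatives used TMM (edgeR 4.0.16) and median-of-ratios (DESeq2 1.42.0) factors in R 4.3.3, and the rest was computed in Python 3.11.15 with scipy 1.17.1, pandas 2.3.3 and numpy 2.4.6. Promoters came from RefSeq, first window per symbol.

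The members and lists were chosen with earlier results of these data known. The rule for naming genes covered the 30 highest protein-coding entries with a symbol, the top 3 of each list, members called not detected, defining members such as ligand and receptor pairs, and among the called entries those with the largest replicate ratios, but not every gene it covers is printed. Some list members are not reported here. Other list members named were chosen after their values were seen. The vesicle-treated libraries were not analysed here.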

Additional observations from a re-analysis of the deposited data

How the results depend on the processing

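The number of expressed entries (10712) ranged from 9563 with a threshold of 2 CPM per kilobase to 12290 with TPM, and that of expressed list members (806) from 764 to 857 under the same alternatives. With 1 library alone they were 11031 to 11055 entries and 810 to 811 list members. Shares of TPM in place of counts were higher, because TPM weights short genes more. The 10 and 100 entries with the most counts, not ranked anew by TPM, held 5.93% and 20.2% of TPM. Ribosomal protein genes held 8.77% and assembled loci 5.30%. Per library these shares of counts were 4.10 to 4.11%, 16.4 to 16.6%, 3.87 to 3.94% and 1.87 to 1.89%. Entries called between the libraries numbered 662 with a minimum of 1 count, 783 with a minimum of 50, 773 with TMM factors, and 114 when a log2 ratio of at least 1 was also required. Restricting to entries found by symbol (768 list members) or to protein-coding entries (9391) was chosen after seeing the data. Counts in small lists moved by over 1.5 times in TNF family ligands (3 at a threshold of 2), classical activation markers (8 with TPM), neutrophil markers (2 with TPM or at 0.5), T and NK cell markers (1, Lck, as in replicate 1 alone), stromal markers (1 with TPM) and endothelial markers (1 at a threshold of 2). No paired analysis was possible because 1 group was described and no groups were compared. Depth limits genes near 3 counts.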
